A study of Mus musculus with 3 samples.

Results

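Estrogen receptor α (ERα) binding in the mouse mammary gland was examined around 7 genes listed for paracrine signalling. They were Tnfsf11, Tnfrsf11a, Tnfrsf11b, Calca, Cxcl12, Adamts1 and Id4, of which Id4 acts inside the cell. A peak was taken as a site of one of these genes when its midpoint was within 100 kb of any annotated transcription start site (TSS) of the gene in the mm9 genome. This gave 5 of the 9607 peaks of replicate 1 and 2 of the 6819 peaks of replicate 2. A region covered by peaks of both replicates, overlapping by at least 1 bp, was called a shared region, and 1 of the 6250 shared regions was near one of the 7 genes. That region was 8.08 kb upstream of Cxcl12. Tnfrsf11a and Tnfrsf11b each had 1 peak in replicate 1 alone, Id4 had 1 peak in replicate 2 alone, and Tnfsf11, Calca and Adamts1 had no peak in either list.

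The ChIP-seq libraries were made from whole mammary glands of wild-type BALB/c female mice that were ovariectomized at 6 weeks, rested for 10 days and given 100 ng of 17β-estradiol under the skin for 2 h. Inguinal glands of 6 mice were pooled for each of 2 ERα replicates, and 1 input DNA library served as the control of the peak calling for both. All samples received estradiol and no vehicle-treated ChIP library was analysed here, so the lists describe ERα binding after estradiol and not its change. Whole-gland chromatin mixes epithelial, stromal and fat cells, so a site used by few cells cannot be told apart from a site weakly bound in many. Peak lists hold no expression values, so the labelled tissue could not be checked against its marker genes.

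RANK ligand, the product of Tnfsf11, is a membrane-bound or soluble cytokine that mammary cells with hormone receptors make in response to progesterone. It acts on neighbouring cells through its receptor RANK, the product of Tnfrsf11a, which signals through TRAF proteins to NF-κB. Osteoprotegerin, the product of Tnfrsf11b, is a soluble decoy receptor that captures the ligand. Calca encodes calcitonin and the neuropeptide CGRP, Cxcl12 encodes a chemokine read by the receptors CXCR4 and CXCR7, and Adamts1 encodes a secreted metalloproteinase that cleaves versican and aggrecan. Id4 differs from the others in acting inside the cell, as an inhibitor of basic helix-loop-helix factors that is found in the basal layer of the mammary epithelium. ERα binds DNA as a dimer at the estrogen response element (ERE), an inverted repeat of the arms GGTCA and TGACC with 3 bases between them, or is brought to DNA by other bound factors.

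The sequences of 2 sites are shown first, since they are the region found in both replicates and the peak closest to a TSS. Both are the central 300 bases on the plus strand of mm9. Capitals in the Cxcl12 sequence mark the forkhead motif, TGTTTAC or TATTTAC on either strand, and the Tnfrsf11b sequence held none of the motifs searched.
Cxcl12, shared region, chr6:117110326-117110625: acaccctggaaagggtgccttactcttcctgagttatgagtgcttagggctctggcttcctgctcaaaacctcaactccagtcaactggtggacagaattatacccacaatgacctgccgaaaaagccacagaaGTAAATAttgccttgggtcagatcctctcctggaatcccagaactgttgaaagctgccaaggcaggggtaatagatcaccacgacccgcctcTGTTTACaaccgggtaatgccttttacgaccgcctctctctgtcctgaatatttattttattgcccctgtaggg
Tnfrsf11b, replicate 1 peak, chr15:54110097-54110396: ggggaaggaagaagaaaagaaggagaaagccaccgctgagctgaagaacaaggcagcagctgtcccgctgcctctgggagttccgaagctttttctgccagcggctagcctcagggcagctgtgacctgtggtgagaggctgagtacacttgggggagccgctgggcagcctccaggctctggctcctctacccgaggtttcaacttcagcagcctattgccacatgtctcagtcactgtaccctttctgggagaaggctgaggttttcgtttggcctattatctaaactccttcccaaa

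Of the 7 genes, 1 had a shared region within 100 kb, while 38.1% of the 22350 protein-coding genes of the annotation did. Counted in each list alone, 3 of the 7 genes had a peak in replicate 1, against 49.6% of all protein-coding genes, and 2 of the 7 had a peak in replicate 2, against 40.3%. All 3 shares of the listed genes were below the share of all genes. With 7 genes chosen for their role and no test made, nothing particular to the list can be read from these shares. The map of peaks by distance shows where the sites of each gene were.

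**Figure D1:**
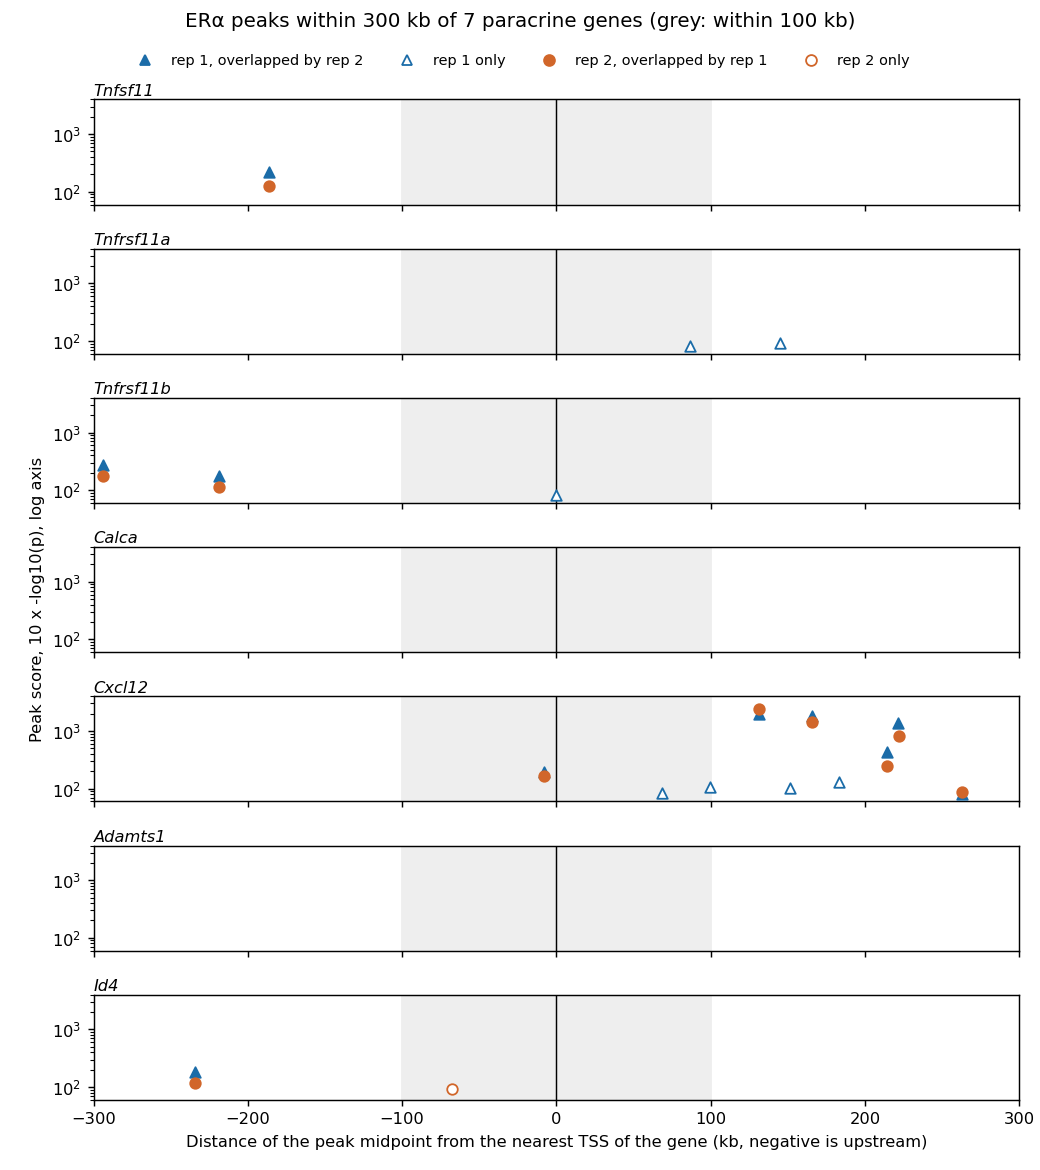
ERα peaks within 300 kb of the 7 genes, by distance of the peak midpoint from the nearest TSS of the gene (kb, x axis, negative is upstream) and peak score (log y axis). Filled symbols overlap a peak of the other replicate, open symbols do not, and the grey band is the 100 kb limit. Inside the band only Cxcl12 has filled symbols, and its highest scores, 1955.87 and 2390.87 at 131 kb, are just outside it.

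The RANK ligand gene Tnfsf11 (chr14:78677252-78707850, minus strand, 2 TSSs) had no peak of either replicate within 100 kb. The nearest was a shared region 187 kb upstream at chr14:78894160-78894577, with a score of 218.3 in replicate 1 and 125.91 in replicate 2. Scores are on the scale of MACS, −10 × log10(p), on which the cutoff of 1e-08 stands at 80. The region was in an exon of Akap11, whose TSS was also the nearest to it. Its closest match to the ERE, GGGCTACATGACC, had 2 mismatches. On the other side of Tnfsf11 the nearest shared region was 470 kb downstream, in an intron of Dnajc15, and its scores were 174.73 and 175.67. Among all protein-coding genes, 45.8% had their nearest shared region at least as far away as Tnfsf11.

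The receptor gene Tnfrsf11a (chr1:107677300-107744558, plus strand) had 1 peak, in replicate 1, at chr1:107763475-107763870. It was 86.4 kb downstream of the TSS and beyond the end of the gene, with no host gene. The nearest TSS of any type was that of a U6 snRNA, and the nearest of a protein-coding gene was that of Tnfrsf11a. The score of the peak, 80.51, was just above the cutoff and exceeded only 0.614% of the list (rank 9545 of 9607). The nearest peak of replicate 2 was 534059 bp away. The 400 bp around the midpoint held an AP1 motif (TGAGTCA, or TGACTCA on the other strand) and a forkhead motif. A further peak of replicate 1 alone, with a score of 90.69, was 145 kb downstream.

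Tnfrsf11a was the most isolated of the 7 genes from shared regions. The nearest was 620 kb downstream at chr1:108297454-108298009, nearest to the TSS of Phlpp1, with scores of 117.19 and 107.08. Upstream, the nearest was 5097688 bp away, had scores of 222.52 and 128.33, and held an ERE without a mismatch, GGTCAATTTGACC. The TSS nearest to that region was that of AC111074.1, a miRNA gene. Only 17.3% of protein-coding genes had their nearest shared region at least as far away as 620 kb.

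The decoy receptor gene Tnfrsf11b (chr15:54082174-54110039, minus strand) had the peak closest to a TSS of the 7 genes. It was in replicate 1 alone, at chr15:54110059-54110435, with its midpoint 208 bp upstream of the TSS. The peak covered most of the promoter, taken as 250 bases before to 50 after the TSS, and 2.08% of protein-coding genes had a replicate 1 peak over that stretch. Its score of 82.58 exceeded 2.45% of the list, and the nearest peak of replicate 2 was 218286 bp away. The window held no ERE with up to 1 mismatch and none of the other motifs, and its closest ERE match, GGCAGCTGTGACC, had 3 mismatches. The nearest shared region was 218 kb upstream, nearest to the TSS of Mal2, with scores of 178.3 and 112.62.

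Cxcl12 (chr6:117118553-117131385, plus strand, 3 TSSs) was the gene with the most sites. Its shared region at chr6:117110197-117110755 was 559 bp long, intergenic, 8077 bp upstream of the gene, and had Cxcl12 as its nearest TSS. The scores were 195.21 in replicate 1, above 58.3% of that list, and 164.64 in replicate 2, above 51.2%. The midpoints of both peaks were 2 bp apart. The scores were above the medians of their lists, 162 and 161, and below the medians of the shared regions, 246 and 178. The region was close to its gene by comparison, since 93.0% of protein-coding genes had their nearest shared region at least as far away.

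Replicate 1 held 2 more peaks near Cxcl12 that replicate 2 did not. The peak 68.6 kb downstream of the TSS (chr6:117187001-117187486) had a score of 83.04 and none of the motifs searched. The peak 99.6 kb downstream (chr6:117217887-117218564) had a score of 108.47 and an AP1 motif, and it was just inside the 100 kb limit. For both the nearest TSS was that of Rpl28-ps4, not of Cxcl12. The annotation types Rpl28-ps4 as protein-coding, although its symbol has the form given to pseudogenes.

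Just outside the limit, the stretch downstream of Cxcl12 held far stronger sites. A shared region at chr6:117249220-117250269, 131 kb from the TSS, had a score of 1955.87 in replicate 1 (rank 120) and 2390.87 in replicate 2 (rank 22). A second, at chr6:117283593-117284347 and 165 kb from the TSS, had scores of 1831.59 and 1442.39. Further shared regions followed at 214 kb (424.13 and 251.02), 222 kb (1371.88 and 807.66) and 263 kb (80.85 and 86.03). The sites at 131 and 165 kb were intergenic and also had Rpl28-ps4 as the nearest TSS. Distance alone does not tie them to Cxcl12 or to Rpl28-ps4, and a link to either gene was not tested.

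Calca (chr7:121774994-121779871, minus strand) had no peak within 100 kb. The nearest shared region was 344 kb downstream at chr7:121435833-121436539, nearest to the TSS of Psma1, and its scores of 219.57 and 87.83 differed more than those of the Cxcl12 region. Upstream the nearest was 762 kb away, nearest to Sox6, with scores of 145.65 and 148.25. Although none was close, 15 shared regions were within 1000 kb of Calca, which 91.1% of protein-coding genes did not exceed.

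Adamts1 (chr16:85794072-85803358, minus strand, 3 TSSs) had no peak within 100 kb either. The nearest shared region was 419 kb upstream at chr16:86222337-86222864, with scores of 115.64 and 87.73, and its nearest TSS was that of Adamts5, the gene of a related proteinase. The nearest on the other side was 681 kb downstream in an intron of App, with scores of 164.2 and 92.55.

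Id4 (chr13:48356796-48359405, plus strand) had 1 peak, in replicate 2, at chr13:48289115-48289687. It was 67.4 kb upstream, intergenic, and had Id4 as its nearest TSS. The score of 91.38 was low in that list (rank 6001 of 6819), and the nearest peak of replicate 1 was 167101 bp away. The window held a forkhead motif 138 bp from the midpoint and no ERE. The nearest shared region upstream was 234 kb away (183.67 and 119.75), with an AP1 and a forkhead motif, and was nearest to the TSS of 4931429P17Rik, not of Id4. Downstream the nearest was 428 kb away (543.98 and 471.03), nearest to the TSS of Barx1 and with an ERE of 1 mismatch, GGTCACTGTGCCC.

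**Figure D2:**
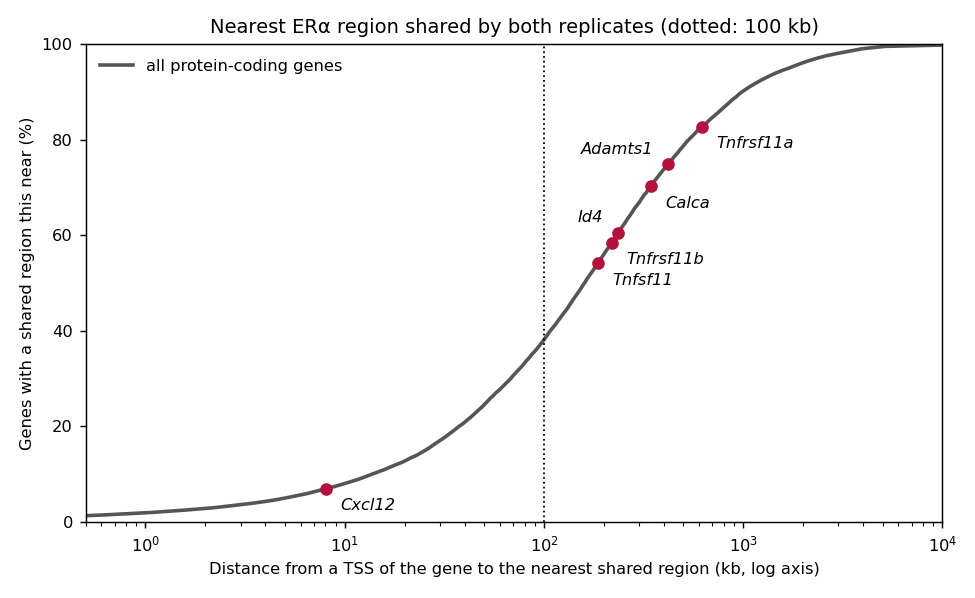
Share of 22350 protein-coding genes (%, y axis) with a shared region at most as far from a TSS as the distance on the x axis (kb, log axis), with the 7 genes marked at their own distances and the 100 kb limit dotted. Cxcl12 is at 8.08 kb, and the other 6 genes are between 187 and 620 kb, past the median of all genes at 160 kb.

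Ordered by distance to the nearest shared region, the genes were Cxcl12 (8.08 kb), Tnfsf11 (187 kb), Tnfrsf11b (218 kb), Id4 (234 kb), Calca (344 kb), Adamts1 (419 kb) and Tnfrsf11a (620 kb). The median was 234 kb, against 160 kb for all protein-coding genes, whose quartiles were 51.3 and 423 kb. Past the median of all genes were 6 of the 7, but only Tnfrsf11a was past the upper quartile. Within 500 kb, Cxcl12 had 9 shared regions, Calca 4, Tnfsf11 and Tnfrsf11b 3 each, Id4 2, Adamts1 1 and Tnfrsf11a none, and the median over all genes was 3. Thus Tnfsf11 and Tnfrsf11b had as many as the median gene at that distance, and Cxcl12 had as many as or more than 92.3% of genes.

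The 7 genes were in stretches with few TSSs of other genes. Their windows held a TSS of 0 to 2 other protein-coding genes, against a median of 4 such genes (quartiles 2 and 7). Genes that reach into a window without a TSS in it were not counted. A shared region within 100 kb was found for 31.6% of the 4625 genes with 0 or 1 such neighbours and for 44.9% of the 2073 with over 10. The part of this in the counts of the listed genes was not tested.

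Of the 7 peaks, 5 had no overlap in the other replicate, 4 of them in replicate 1 and 1 in replicate 2. Over the whole lists, 64.9% of replicate 1 peaks and 90.6% of replicate 2 peaks were overlapped. The 5 peaks without a partner had scores between 80.51 and 108.47. Among replicate 1 peaks with a score under 110, a limit chosen after these scores were seen, 24.8% were overlapped, so an unmatched replicate 1 peak is the usual case at these scores. In replicate 2 the share under 110 was 72.8%, so the unmatched Id4 peak was in the minority of its class. In the class of 150 to 200, which holds both scores of the Cxcl12 region, 74.5% of replicate 1 peaks and 97.5% of replicate 2 peaks were overlapped.

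**Figure D3:**
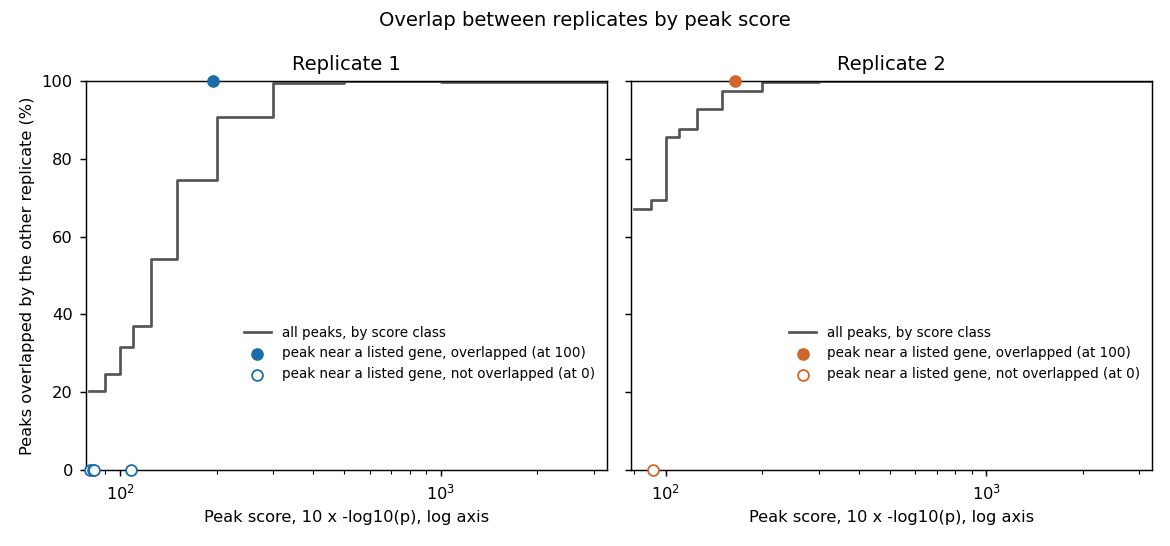
Share of peaks overlapped by the other replicate (%, y axis) by class of peak score (log x axis), for replicate 1 (left) and replicate 2 (right), with the peaks near the 7 genes drawn at 100 where overlapped and at 0 where not. The unmatched peaks are at scores of 80.51 to 108.47, where the replicate 1 line is between 20.2 and 31.6%, and the overlapped pair is at 195.21 and 164.64.

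None of the sites near the 7 genes held an ERE with up to 1 mismatch over its 10 fixed bases in the 400 bp around the midpoint. Over all shared regions on assembled chromosomes, 31.1% held one, against 1.10% of windows placed 5 kb to each side. For 1 shared region, the exact Clopper-Pearson 95% interval of a share of 0 reaches 97.5% and covers counting error only, so the absence says little. In peaks of replicate 1 alone the share was 15.7%, and in peaks of replicate 2 alone 13.9%. The closest match within each whole peak or region is shown in capitals, with 20 bases to each side, on the plus strand. All were within the 400 bp except that of the peak 99.6 kb from Cxcl12, which was 208 bp from the midpoint, and the closest match inside that window had 4 mismatches. The last line is the stronger region 131 kb from Cxcl12 for comparison.
Cxcl12, 8.08 kb upstream, 2 mismatches: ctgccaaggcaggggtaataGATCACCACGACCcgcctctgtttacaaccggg
Cxcl12, 99.6 kb downstream, 2 mismatches, outside the 400 bp: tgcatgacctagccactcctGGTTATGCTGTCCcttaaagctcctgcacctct
Cxcl12, 68.6 kb downstream, 3 mismatches: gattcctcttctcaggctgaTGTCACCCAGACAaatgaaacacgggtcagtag
Tnfrsf11a, 86.4 kb downstream, 2 mismatches: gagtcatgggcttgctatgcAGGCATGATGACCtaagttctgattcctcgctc
Tnfrsf11b, 208 bp upstream, 3 mismatches: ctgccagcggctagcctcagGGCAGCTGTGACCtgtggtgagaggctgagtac
Id4, 67.4 kb upstream, 3 mismatches: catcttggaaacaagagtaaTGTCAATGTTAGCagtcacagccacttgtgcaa
Cxcl12, 131 kb downstream, no mismatch: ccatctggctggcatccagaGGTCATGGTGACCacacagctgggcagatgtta

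A match with up to 2 mismatches was found in 67.4% of shared windows and 15.5% of flanking windows, and the Cxcl12 shared region and the Tnfrsf11a peak each had one in the window. With up to 3 mismatches, as at Tnfrsf11b, Id4 and the inner unmatched Cxcl12 peak, the shares were 95.1% and 70.8%. Among peaks of replicate 1 alone, 48.1% had a match with up to 2 mismatches and 89.6% with up to 3. Among peaks of replicate 2 alone, the shares were 43.6% and 86.7%. Of the other motifs, AP1 was in 2 of the peaks (Tnfrsf11a and the outer Cxcl12 peak), while 16.7% of shared windows, 14.7% of replicate 1 peaks without a partner and 7.10% of flanks held it. The forkhead motif was in the Cxcl12 shared region, where it occurred at 2 places, and in the Tnfrsf11a and Id4 peaks. It was in 14.0% of shared windows and 10.7% of flanks, and in 11.9% of peaks of replicate 1 alone and 18.7% of peaks of replicate 2 alone. The SF1 motif (CAAGGTCA, which shares its last bases with an ERE arm) and the PAX2 motif (GTCACG) were in none of the sites. These motifs were searched on both strands, and 41.0% of all shared windows held none of the 5.

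The stretches around the genes did hold ERE-like sequences. Within 100 kb of their TSSs there were 41 matches with 1 mismatch, 3 to 9 per gene, against a median of 7 over all protein-coding genes (quartiles 5 and 9). Cxcl12 had 9, Tnfrsf11a 8, Tnfsf11 7, Id4 6, Adamts1 5, and Tnfrsf11b and Calca 3 each. No match without a mismatch was found in any of the 7 windows, as in 78.5% of all gene windows. None of the 41 was under a peak of either replicate. Over the genome, 17.9% of the 2353 EREs without a mismatch and 2.47% of the 70024 with 1 mismatch were under a shared region. Within 100 kb of protein-coding TSSs, the share was 3.02% of 47723 matches with 1 mismatch. These shares are for shared regions, and the share under a peak of either replicate was not computed. The match closest to Tnfsf11, GGTCACTCTGAGC, was 12.8 kb upstream of the TSS. The match closest to Cxcl12, GGTCATCCTGAGC, was 4.94 kb upstream and 3137 bp from the shared region. None of the promoters of the 12 annotated TSSs of these genes held an ERE with up to 1 mismatch.

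Of the 41 matches, 7 were the same 13 bases, GATCAAGTTGACC, which was seen after the matches were listed. They were at 6 of the 7 genes, with 2 at Cxcl12 and none at Calca. The bases around them were alike as well, since each 43-base stretch differed by at most 2 bases from the copy at Tnfsf11. Of the copies shown, each is on the strand that reads GATCA first, with the match in capitals.
Tnfsf11, chr14:78611367-78611409: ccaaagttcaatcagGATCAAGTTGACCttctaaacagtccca
Tnfrsf11a, chr1:107733092-107733134: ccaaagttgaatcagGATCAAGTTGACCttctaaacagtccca
Adamts1, chr16:85716931-85716973: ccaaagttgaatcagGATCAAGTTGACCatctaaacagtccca

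This sequence had 9701 copies in mm9, the most of the 955 different sequences with 1 mismatch, whose median was 50 copies. Of its copies, 1 was under a shared region (0.0103%), against 1731 of the 60323 other matches with 1 mismatch (2.87%). Whether reads could be placed over these copies was not tested. The other 34 matches near the 7 genes were not of this sequence.

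**Figure D4:**
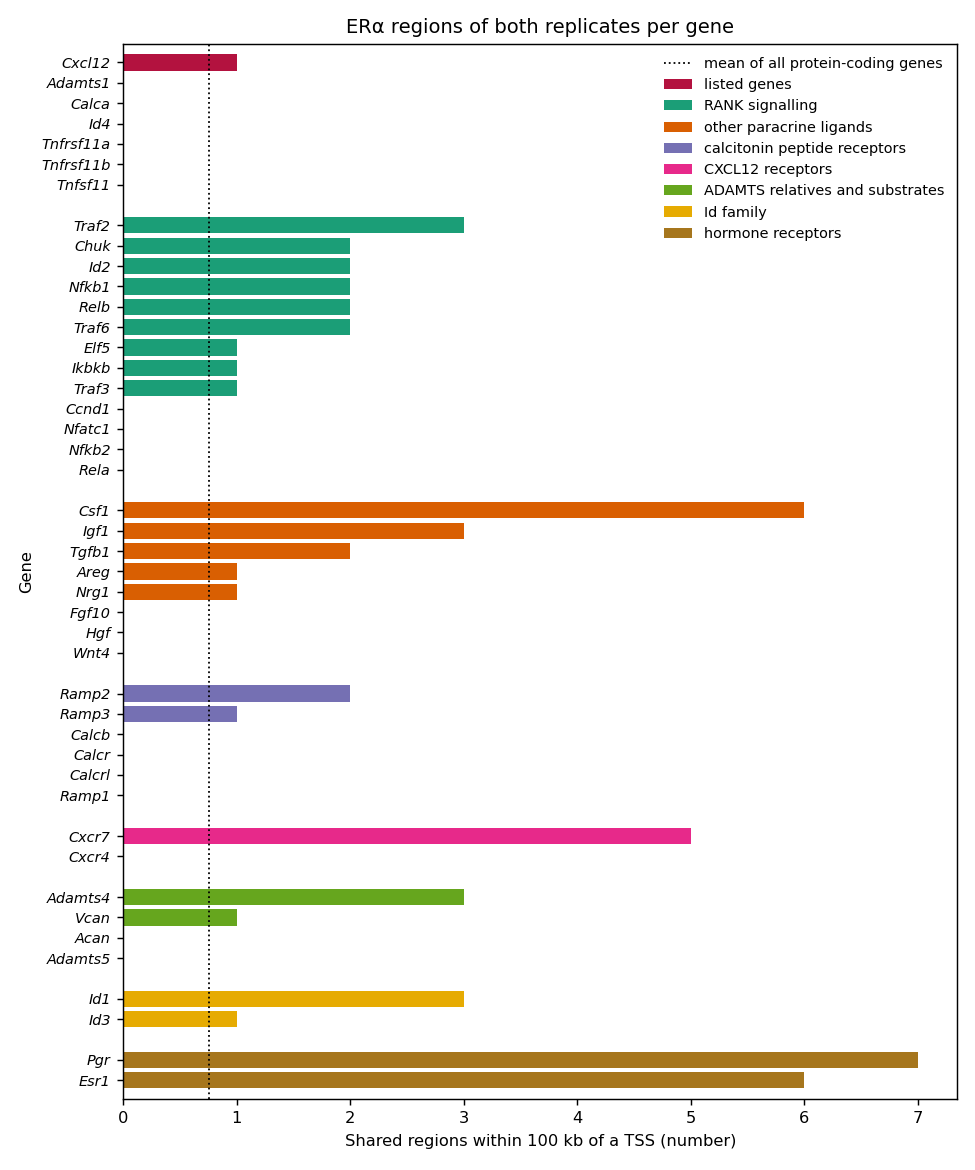
Number of shared regions within 100 kb of a TSS (x axis) for the 7 genes (top) and for 37 partner genes, coloured by group. The partners are genes of the same pathways or families, other paracrine ligands of the mammary gland, and Pgr and Esr1. The dotted line is the mean over all protein-coding genes, 0.754, and Pgr with 7 and Esr1 and Csf1 with 6 each have the longest bars.

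The 37 partner genes came from a fixed list. It holds genes of the same pathways or families, other paracrine ligands of the mammary gland, and the hormone receptor genes Pgr and Esr1. Of the 37, 23 (62.2%) had a shared region within 100 kb, and 14 had none. The 58 regions gave a mean of 1.57 per gene, against 0.754 over all protein-coding genes. The list was drawn up by role with results of these data known, so its share is a description.

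These shares by group are read beside the 38.1% of all protein-coding genes with a shared region, and none was tested. Among 13 genes of RANK signalling, 9 (69.2%) had a shared region, with 16 regions in all. Traf2, an adaptor that joins TNF receptors to NF-κB, had 3, the strongest with scores of 937.46 and 620.05 at 84.6 kb upstream. Of 8 other paracrine ligands, 5 (62.5%) had one, with 13 regions. Csf1, the growth factor of macrophages, had 6, the strongest with scores of 1113.58 and 991.96 at 18.0 kb downstream of a TSS. Igf1, a stromal growth factor, had 3, and its strongest reached 2203.08 and 1269.29 at 45.8 kb upstream.

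The receptors of the listed ligands differed among themselves. Cxcr7, the scavenging receptor of CXCL12, had 5 shared regions, the strongest with scores of 1042.38 and 733.04 at 30.8 kb downstream. Cxcr4, the signalling receptor, had none, and its nearest was 723 kb away. Of 6 genes for receptors of calcitonin peptides and the related peptide Calcb, 2 had a shared region (33.3%, near the share of all genes), with 3 regions. Among 4 relatives and substrates of ADAMTS1, 2 (50%) had one, of which Adamts4 had 3 with scores of up to 314.05 and 291.5. The Id genes Id1 and Id3 both had one or more, and Id1 had 3, the highest with scores of 382.52 and 181.94 at 41.4 kb upstream. A further Id gene, Id2, was counted with RANK signalling and had 2, the strongest with scores of 865.74 and 449.07.

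The hormone receptor genes were among those with the most, with Pgr first and Esr1 level with Csf1. Pgr, the progesterone receptor, had 7, the strongest with scores of 2349.7 and 2059.11 at 69.1 kb downstream, and Esr1, the gene of ERα itself, had 6, the strongest with 1629.62 and 1230.21 at 52.3 kb upstream. Beside these, the highest scores of a site within 100 kb of any of the 7 listed genes were 195.21 and 164.64, at Cxcl12.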

How the data were processed

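ERα ChIP-seq peaks of 2 replicates from estradiol-treated mouse mammary glands were used. The authors mapped single-end reads of 51 nt with BWA (build mm9), and MACS then called the peaks (version not given in the sources used here) in each replicate against 1 input library at a p-value of 1e-08. Each deposited score equals −10 × log10(p) of its peak. It rises with depth as well as with enrichment, and the lists give no reads, so depth cannot be read from them and the read totals of the libraries were not used here. Each replicate was called on its own.

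Peaks were placed by midpoint against GENCODE version 1 for mouse (Ensembl 65, NCBIM37, the assembly of mm9). Distances run to the nearest TSS of any transcript and are negative upstream. Unplaced sequences, with 9 and 7 peaks, were left out of positions and motifs. Motifs were searched in 400 bp windows, with windows 5 kb to each side for comparison. Overlap, distances and the motif search were tested on simulated data. No test of significance was made: counts are given beside the same counts over all genes or regions.

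All 7 genes were named with every site. Other genes were named only where a site lay in them or nearest to them, or as up to 8 partner genes with the most shared regions. Exceptions were Cxcr4, Id2, Id3 and Calcb, which were added after their values were seen. Genes and lists were chosen with earlier results of these data known. Alternatives were stricter scores, other distances, overlaps, TSS sets, motif settings and each replicate alone. The tools were samtools 1.23.1 and Python 3.11.15 with pandas 2.3.3, numpy 2.4.6, pysam 0.24.0, scipy 1.17.1 and, for plots, matplotlib 3.10.9.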

Additional observations from a re-analysis of the deposited data

How the results depend on the processing

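With a score of at least 100, 2 replicate 1 peaks and 1 replicate 2 peak remained near the 7 genes. With at least 200, 0 peaks of either list, 0 shared regions and 0 genes with one remained, and the share with an ERE could not be computed. A limit of 50 kb left 2 and 1 peaks. At 200 kb there were 11 and 5 peaks, 4 shared regions (25% with an ERE) and 2 of the 7 genes with one, Tnfsf11 with 1 and Cxcl12 with 3. The share over all genes moved with the limit as well. Of all protein-coding genes, 75.5% had no shared region within 50 kb, 61.9% none within 100 kb and 43.9% none within 200 kb. With each replicate left out in turn, regions numbered 2 to 5 and genes with one 2 to 3: without replicate 2, the 5 were at Tnfrsf11a (1), Tnfrsf11b (1) and Cxcl12 (3), and without replicate 1 the 2 were at Cxcl12 and Id4. Allowing 2 mismatches made the ERE share 100%. Each of these follows from the peaks or matches that the setting keeps. Reciprocal overlap of 50%, midpoints within 100 bp, other TSS sets, peak edges, other motif windows and 0 mismatches left the counts they bear on as they were. No paired analysis was possible because the results come from no test. The spread between animals cannot be estimated from 2 pooled replicates of 1 group, and a weak site cannot be told apart from a site in few cells.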
